A study of Mus musculus with 2 samples.

Results

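Granulocyte and monocyte precursors are described here in the cochlea of 20-day-old mice. The cells were chosen by their own transcripts. A member had at least 3 of 8 granule and granulocyte genes (Ngp, Camp, Cebpe, Elane, Mpo, Prtn3, Ctsg and Ltf) with 1 or more UMIs (unique molecular identifiers, each standing for 1 captured RNA molecule), and at most 5% of its UMIs from haemoglobin genes. The rule took 95 of 1975 cells. Of these, 93 were among the 1331 cells of library 1 (6.99%, exact 95% interval 5.68% to 8.49%) and 2 among the 644 cells of library 2 (0.311%, 0.0376% to 1.12%). In 34 of the 95 cells the 8 genes made up at least 0.5% of all UMIs, and these are called granule-rich below. One of the 34 was rich in basophil and mast cell genes. The other 61 cells, all of library 1, are described as members under 0.5%. Markers of other cell types led in 55 of them, which goes against the name, and monocyte genes led in 6. The lead was the highest of 6 marker sets, with no minimum and no granulocyte set.

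The study measured RNA of single cells from cochleae of wild-type C57BL/6 mice bought from the Jackson Laboratory, at postnatal day 20. Cochleae of 5 to 8 animals were dissociated with trypsin, and the libraries were read on an Illumina HiSeq instrument. Both libraries belong to 1 group, with no treatment and no genotype contrast, and nothing in the labels says that they came from separate animals. The members were therefore set against other cells of the same libraries, and cells of 1 library were not treated as replicates.

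Granulocytes and monocytes arise in blood-forming marrow from shared progenitors. Promyelocytes make the primary (azurophil) granules with myeloperoxidase and the serine proteases elastase, proteinase 3 and cathepsin G. Myelocytes and metamyelocytes then make the specific granules with lactoferrin, the cathelicidin Camp and the neutrophilic granule protein Ngp under the transcription factor C/EBP epsilon, and later stages make gelatinase granules with matrix metalloproteinases.

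The promoters of 3 specific granule genes (Ngp, Ltf and Camp) and of 2 primary granule genes (Elane and Mpo) are shown, since these genes set the sides described below. Each line gives the 250 bases before the RefSeq transcription start (GRCm38.p6, 5' to 3' on the gene's strand). The GENCODE gene bodies given in the next paragraph begin further upstream, so each printed window ends inside its GENCODE gene. Capitals mark matches to TTGCNNAA, a C/EBP-type motif, and to GAGGAA, a PU.1-type motif, each searched on both strands.
Ngp, chr9:110419558-110419807, + strand: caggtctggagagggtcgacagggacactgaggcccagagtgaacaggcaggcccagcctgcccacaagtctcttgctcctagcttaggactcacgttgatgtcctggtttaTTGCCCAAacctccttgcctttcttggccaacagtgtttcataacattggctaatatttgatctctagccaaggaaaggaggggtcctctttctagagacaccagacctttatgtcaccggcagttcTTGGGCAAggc
Ltf, chr9:111019042-111019291, + strand: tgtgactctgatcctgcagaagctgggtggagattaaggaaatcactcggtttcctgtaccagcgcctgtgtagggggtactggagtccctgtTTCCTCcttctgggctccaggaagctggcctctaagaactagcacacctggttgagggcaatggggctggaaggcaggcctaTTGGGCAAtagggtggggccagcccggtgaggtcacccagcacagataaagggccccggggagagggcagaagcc
Camp, chr9:109849457-109849706, - strand: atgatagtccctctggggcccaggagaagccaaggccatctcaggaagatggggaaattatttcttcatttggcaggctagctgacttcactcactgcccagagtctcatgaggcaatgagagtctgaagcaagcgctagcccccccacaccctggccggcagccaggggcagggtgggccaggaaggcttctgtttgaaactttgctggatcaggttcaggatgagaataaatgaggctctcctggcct
Elane, chr10:79886062-79886311, + strand: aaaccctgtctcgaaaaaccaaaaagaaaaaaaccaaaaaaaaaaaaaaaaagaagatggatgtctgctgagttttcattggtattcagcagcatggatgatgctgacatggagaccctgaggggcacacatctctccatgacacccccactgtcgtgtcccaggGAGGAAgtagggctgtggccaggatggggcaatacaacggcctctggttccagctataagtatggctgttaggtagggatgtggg
Mpo, chr11:87793534-87793783, + strand: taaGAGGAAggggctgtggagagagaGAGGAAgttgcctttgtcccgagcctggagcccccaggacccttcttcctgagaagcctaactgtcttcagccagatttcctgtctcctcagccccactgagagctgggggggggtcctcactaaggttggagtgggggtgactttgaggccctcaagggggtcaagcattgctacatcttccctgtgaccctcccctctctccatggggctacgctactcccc
The Ngp window held 2 C/EBP-type matches, at -138 and -11 from the RefSeq start, and no PU.1-type match. The match at -11 lies inside the GENCODE gene body. The Ltf window held 1 of each, with the C/EBP-type match at -75, and the Camp window held none of either. The Elane window held 1 PU.1-type match and the Mpo window 2, and neither held a C/EBP-type match. The windows of Prtn3 and Ctsg held 1 PU.1-type match each and no C/EBP-type match. The Prtn3 window lies wholly inside the GENCODE gene body. Of 32851 mouse promoters of this length, 9.56% held the C/EBP-type motif and 23.3% the PU.1-type motif. A match describes letters and does not show binding.

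In GRCm38 (GENCODE M21) the genes lie as follows. Camp (chr9:109847379-109849617, - strand), Ngp (chr9:110419747-110423012, + strand) and Ltf (chr9:111019271-111042767, + strand) share a stretch of chromosome 9. Prtn3 (chr10:79874476-79883174, + strand) and Elane (chr10:79886247-79888215, + strand) are neighbours on chromosome 10, and their gene bodies do not overlap. Mpo lies at chr11:87793581-87804413 on the + strand. Ctsg (chr14:56099881-56102574, - strand) and Cebpe (chr14:54710360-54712174, - strand) lie on chromosome 14. S100a8 (chr3:90668978-90670035, + strand) and S100a9 (chr3:90692632-90695721, - strand), which encode the calprotectin subunits, lie together on chromosome 3.

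The share of UMIs in the 8 rule genes separated the members into 2 sets with a gap between them. This share was used to define the sets, so it is given as a description. The lowest granule-rich cells had 0.733% and 0.727% of their UMIs in the rule genes. The highest cells below the limit had 0.272%, 0.212% and 0.111%. Summed over cells, the rule genes stood at 65110 CPM (counts scaled to a common library total) in the granule-rich cells of library 1 and at 202 CPM in the members under 0.5%. The cells under 0.5% were deeper, with a median of 28019 UMIs (5411 to 68676) against 9491 UMIs in the granule-rich cells of library 1. When every cell was thinned to 2000 UMIs, the rule took 32 cells in library 1, 31 of them granule-rich, and 2 in library 2.

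**Figure D1:**
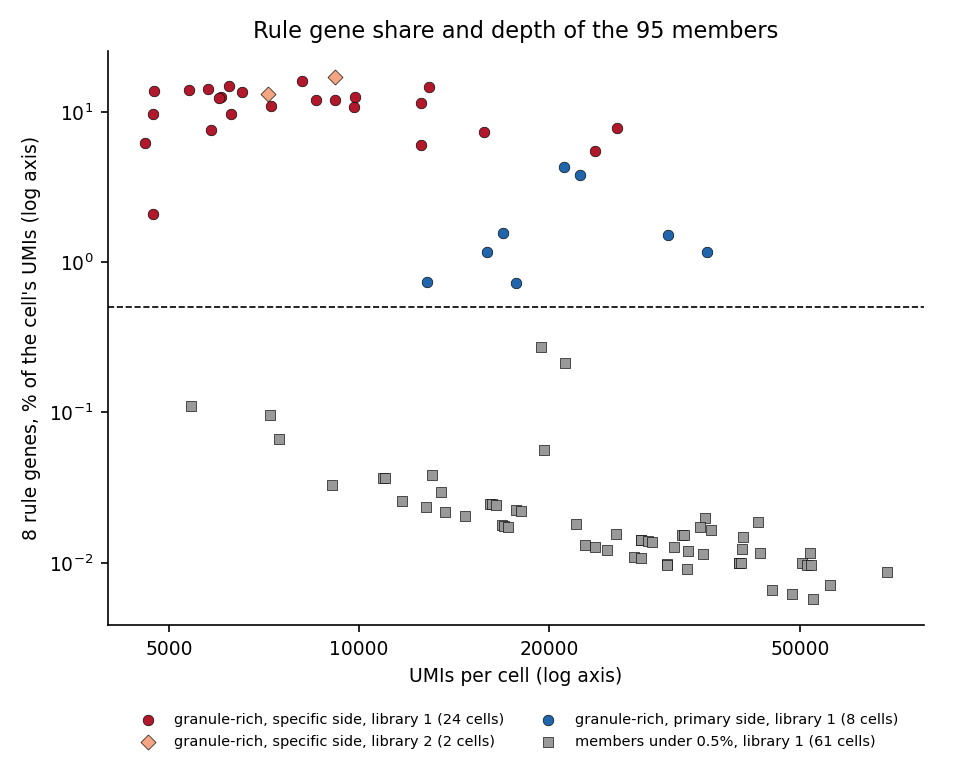
Share of the 8 rule genes in each member's UMIs against the member's UMI count, both on log axes, 1 point per cell; the dashed line is the 0.5% limit. The 34 granule-rich cells lie above the line and the 61 members under 0.5%, mostly deeper cells, lie below it, with no cell between 0.272% and 0.727%.

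In members under 0.5% the specific granule genes Camp and Ngp were near their level in erythroid cells, which should lack them. Over all 8 rule genes the summed level was 202 CPM, against 108 CPM in erythroid cells and 72.8 CPM in other cells of library 1. Camp had at least 1 UMI in 91.8% of these 61 cells, at most 2 UMIs in any of them, and a summed level of 45.9 CPM. In erythroid cells of library 1, whose median depth was 10396 UMIs, Camp was at 51.9 CPM with a UMI in 41.9% of cells. Ngp was at 35.0 CPM in members under 0.5% and at 32.0 CPM in erythroid cells. The granule-rich cells held 28390 CPM of Camp and 21470 CPM of Ngp.

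The primary granule genes had 196 UMIs in the members under 0.5%, 96 of them in the 2 cells nearest to the limit. Their summed level was 112 CPM, and 58.7 CPM in the other 59 cells. These cells were chosen for UMIs of the same genes, so the levels are a description. Elane was at 26.9 CPM there, against 6.14 CPM in erythroid cells and 1.79 CPM in other cells of library 1. Mpo was at 34.4 CPM, against 6.14 CPM in erythroid cells. A single cell held up to 38 UMIs of Mpo and 18 of Elane. The cell nearest to the limit had 51 UMIs of primary granule genes among 19457, with 150 UMIs of the monocyte genes Irf8, Ly6c2, Ccr2 and F13a1, and the next had 45 among 21243, with 26 UMIs of these genes.

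Other cell types' markers led in most members under 0.5%. Mesenchyme genes (Col1a2, Dcn, Coch and Otor) were the highest of 6 marker sets in 38 of the 61 cells, with a median of 196.5 UMIs. Epithelial genes (Epcam and Gjb2) led in 9 cells, monocyte genes in 6, hair cell genes (Otof, Pvalb and Myo7a) in 5, B lineage genes in 2 and macrophage genes in 1. The lead could be low, with 10 mesenchyme UMIs in a cell of 32545 UMIs and 8 epithelial UMIs in another of 25539. Of the 6 monocyte-led cells, 1 was marked as a doublet by Scrublet and also held 20 hair cell UMIs. In the granule-rich cells the same mesenchyme genes reached at most 11 UMIs in any cell, and C1qa, C1qb, C1qc and Mrc1 together at most 1 UMI. Cd3e, Trbc2 and Ncr1, markers of T and NK cells, were at 0 in all 34. One granule-rich cell, described below, carried basophil genes. The part of free RNA in the members under 0.5% was not tested beyond these values, and the results below are given mainly for the granule-rich cells.

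Granule-rich cells fell on one side or the other by granule class. A cell was placed on the specific granule side when it held more UMIs of Ngp, Camp and Ltf than of Elane, Mpo, Prtn3 and Ctsg, and otherwise on the primary side. Library 1 had 24 specific-side and 8 primary-side cells, and both cells of library 2 were on the specific side. The 24 specific-side cells held 96 to 1880 UMIs of the specific granule genes (median 843), against 1 to 3 in the 8 primary-side cells. The 24 cells held 0 to 628 UMIs of the primary granule genes (median 0), against 93 to 899 in the 8 primary-side cells (median 335.5). These genes set the sides and are not evidence for them.

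Few cells held both classes. The share of specific granule genes in the sum of both classes was between 0.1 and 0.9 in 2 cells. The first, with 25667 UMIs, held 1368 UMIs of specific and 628 of primary granule genes. The second, with 23679 UMIs, held 978 and 293. No member of either library lay between 0.4 and 0.6.

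Calprotectin, which the rule did not use, followed the same division. S100a8 and S100a9 encode the calcium- and zinc-binding protein that fills the cytosol of neutrophils. They took 16.5% to 38.9% of all UMIs in the specific-side cells of library 1 (median 31.4%) and 34.9% and 37.6% in the 2 cells of library 2. In the primary-side cells they took 0.0140% to 2.81% (median 0.0395%). The ranges did not overlap. Summed, S100a8 was at 169600 CPM on the specific side and 4742 CPM on the primary side of library 1, and S100a9 at 114500 and 957 CPM.

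Specific-side cells were smaller libraries with fewer genes. They held 4579 to 25667 UMIs (median 6891), against 12820 to 35664 on the primary side (median 19453). Thinned to 4000 UMIs each, they showed 887 to 1364 genes (median 1011), against 1475 to 1637 (median 1533). The 2 cells of library 2 showed 856 and 904 genes at that depth. Mitochondrial transcripts had a median of 1.12% of UMIs on the specific side and 2.48% on the primary side.

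**Figure D2:**
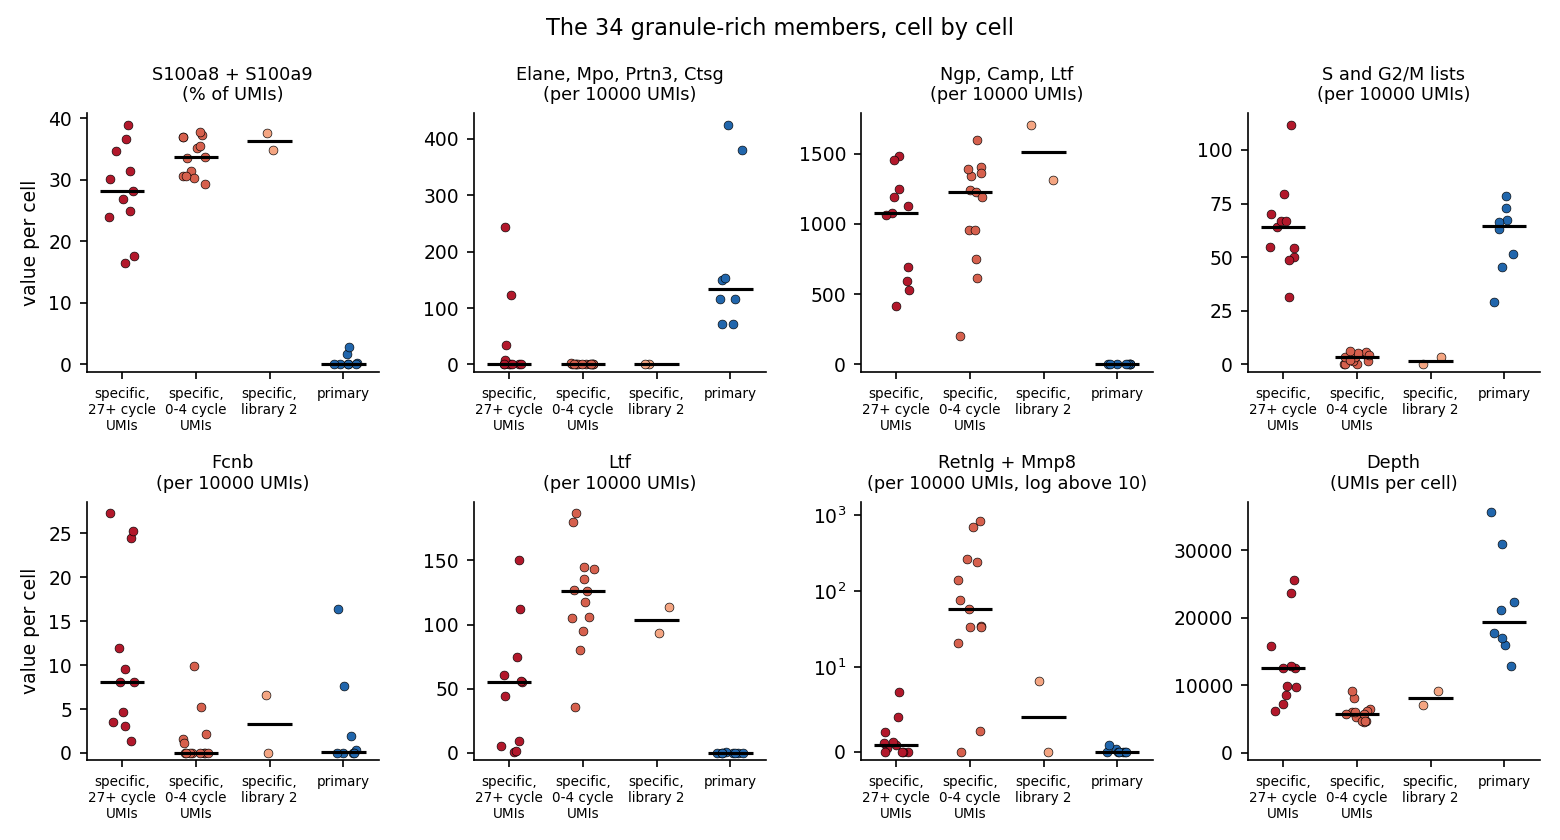
Values of the 34 granule-rich cells, 1 point per cell with the median as a bar, for the specific side of library 1 with at least 27 or with 0 to 4 UMIs of cell cycle genes, the 2 cells of library 2 and the primary side. Calprotectin is in % of UMIs, gene sets are per 10000 UMIs (the Retnlg and Mmp8 axis is linear to 10 and logarithmic above) and depth is in UMIs per cell; calprotectin lay between 16.5% and 38.9% in the specific-side cells of library 1 and at or under 2.81% on the primary side.

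Across genes outside the rule, 1462 genes had at least 30 UMIs over both sides of the granule-rich cells in library 1. With 1 library there is no test, and a gene was called past a 4-fold ratio of CPM + 10, specific over primary side. A gene with no UMI on one side passed the 30-UMI limit through the other side alone, so its call was fixed in advance. By this limit 63 genes were higher (4.31%) and 126 lower (8.62%) on the specific side. The median ratio was 0.641. S100a8, S100a9 and the rule genes fill much of the specific-side total, and with these genes left out of the totals, 107 genes were higher (7.33%) and 46 lower (3.15%), and the median ratio was 0.986. Over all 93 members of library 1, where 83.3% of the specific-side and 78.6% of the primary-side UMIs came from the members under 0.5%, 108 of 7814 genes were higher (1.38%) and 23 lower (0.294%).

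Secreted antimicrobial and specific granule proteins stood high on the specific side. Of 11 further specific granule and myelocyte genes with enough UMIs, 7 were higher and 0 lower past 4-fold, and 9 and 0 with the other totals. Cd177 and Orm1 had no primary-side UMI and could only be called higher. Lcn2, which encodes the siderophore-binding lipocalin of specific granules, was at 10530 CPM on the specific side and 74.9 CPM on the primary side. Chil3, a chitinase-like protein, was at 4445 and 11.5 CPM. Pglyrp1, which encodes a peptidoglycan recognition protein, was at 3974 and 242 CPM. Cd177, a neutrophil surface protein, was at 476 CPM on the specific side and had no UMI on the primary side, at least 27.5-fold higher against a floor of 3 counts over the 8 cells. Lyz2, the myeloid lysozyme, was at 8872 and 2132 CPM, a ratio of 4.16.

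Gelatinase granule and mature neutrophil genes were the list with the most calls, 12 higher and 1 lower of 16 (13 and 1 with the other totals). Of the 16, BC100530, Gm5483, Stfa1, Stfa3, Stfa2l1, Mmp8, Mmp9 and Fpr2 had no primary-side UMI and could only be called higher. The count is therefore a description. Wfdc21, a whey acidic protein family member, was at 5244 CPM on the specific side and 17.3 CPM on the primary side. Ifitm6 was at 3206 and 5.76 CPM, and Retnlg, a resistin-like secreted protein, at 4966 and 11.5 CPM. Mmp8, neutrophil collagenase, and Mmp9, gelatinase B, were at 813 and 323 CPM on the specific side with no UMI on the primary side, at least 47.0-fold and 18.7-fold higher. The gene that was lower, Ifitm1, encodes an interferon-induced membrane protein and was 9.57-fold higher on the primary side.

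The stefin genes, which encode cysteine protease inhibitors, were unevenly spread among cells. BC100530 had 568 UMIs in 10 of the 24 specific-side cells, 37.9% of them in 1 cell. Stfa1 had 322 UMIs in 7 cells and Gm5483 had 183 UMIs in 4 cells. None of these genes had a UMI on the primary side or in library 2. They are near-identical copies, so how reads were divided among them is uncertain.

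**Figure D3:**
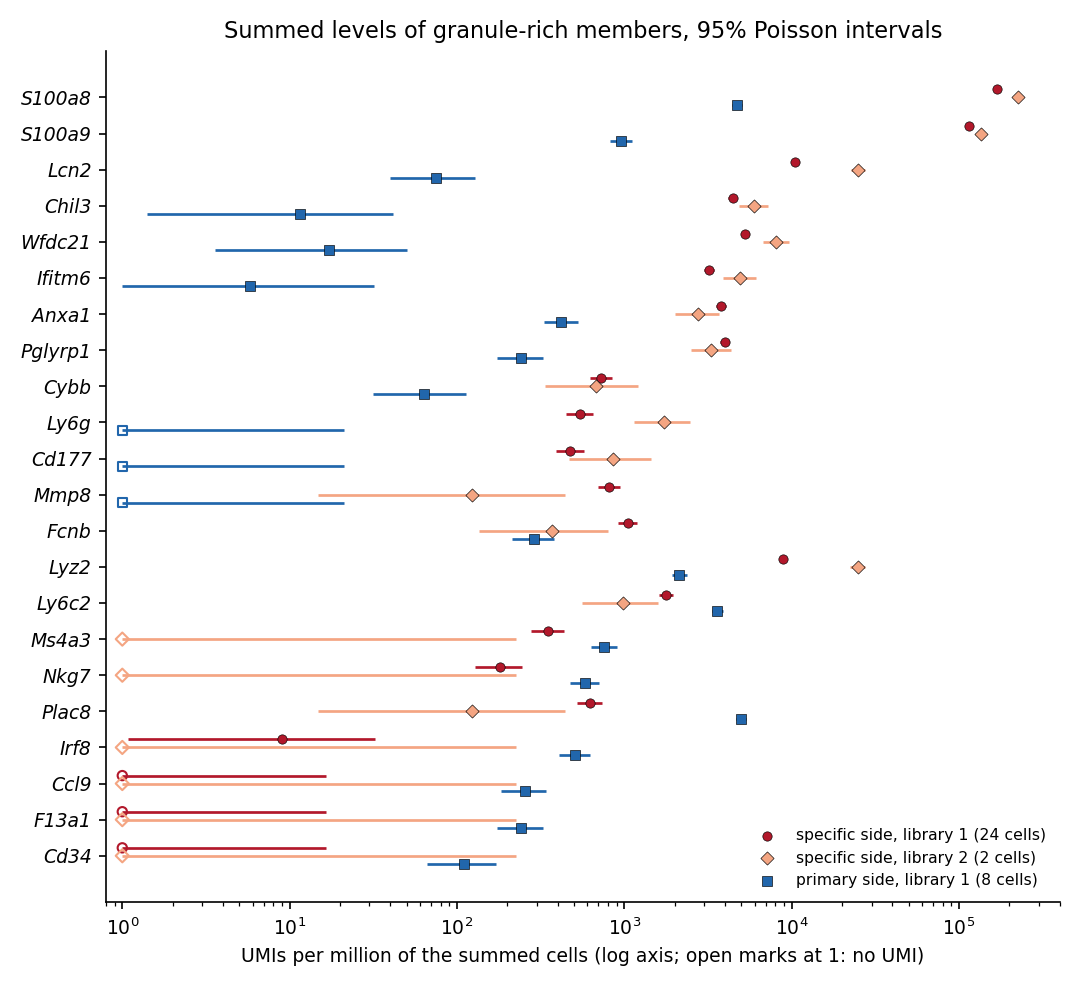
Summed level in CPM (log axis) of 22 genes outside the rule in the granule-rich cells, with exact 95% Poisson intervals that cover counting error only, for the specific side of library 1, the 2 cells of library 2 and the primary side. Neutrophil genes such as Lcn2 (10530 CPM on the specific side, 74.9 CPM on the primary side) separate the sides in one direction and Irf8 (8.98 and 507 CPM) in the other.

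Monocyte and progenitor genes stood high on the primary side. Of 10 monocyte lineage genes with enough UMIs, 0 were higher and 6 lower on the specific side under both totals. Ms4a6c, Ccl9, F13a1 and Ly86 had no specific-side UMI and could only be called lower. Irf8, the transcription factor that directs progenitors to monocytes, was at 8.98 CPM on the specific side and 507 CPM on the primary side. Ms4a6c had no UMI on the specific side and 66 on the primary side (380 CPM), at least 28.2-fold higher there. F13a1, coagulation factor XIII A, and Ccl9, a chemokine, had none on the specific side and 242 and 254 CPM on the primary side. Ly6c2, a surface marker of inflammatory monocytes that granulocyte precursors also carry, was at 1783 and 3596 CPM. All 3 progenitor genes with enough UMIs were lower on the specific side, and 2 with the other totals. Among progenitor genes, Cd34 was at 110 CPM and Gata2 at 80.7 CPM on the primary side, and neither had a UMI on the specific side. Other genes far lower on the specific side were S100a10 (8.98 and 501 CPM), BC035044 (4.49 and 305 CPM) and Ass1, which encodes argininosuccinate synthase (0 and 231 CPM).

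The 8 primary-side cells differed among themselves. The cell with the most primary granule UMIs held 899 of them among 21162, with 13 UMIs of Cebpe and 38 of the monocyte genes. A cell of 22378 UMIs held 852 UMIs of primary granule genes together with 182 of the monocyte genes and 524 of S100a8. Cells of 30909, 17744, 35664 and 15930 UMIs held 464, 128, 411 and 185 UMIs of primary granule genes with 172, 141, 117 and 117 of the monocyte genes. Thus 5 of the 8 cells held 117 or more UMIs of the monocyte genes. Of these 4 genes, Ly6c2, which granulocyte precursors also carry, had up to 176 UMIs per cell. Irf8 had up to 31, F13a1 up to 13 and Ccr2 up to 7, in 6, 4 and 3 of the 8 cells. Specific-side cells of library 1 held 1 to 56 UMIs of the 4 genes, so the sum alone does not mark monocyte precursors.

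The remaining 2 primary-side cells were low in monocyte genes. The cell of 16939 UMIs held 260 UMIs of primary granule genes, 3 of the monocyte genes and 38 of the progenitor list. The shallowest cell, with 12820 UMIs, held 93 UMIs of primary granule genes, 0 of the monocyte genes and 1010 UMIs of the basophil and mast cell genes Mcpt8, Prss34 and Cpa3. No other granule-rich cell had more than 2 UMIs of these 3 genes. The side levels of Mcpt8 (0 and 2501 CPM), Prss34 (4.49 and 2881 CPM) and Cpa3 (0 and 455 CPM) rested on that cell, which gave 98.7% to 100% of their primary-side UMIs.

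Genes of protein synthesis stood higher on the primary side, but past 4-fold not under every total. Of 82 ribosomal protein genes, 12 were past 4-fold lower on the specific side and 0 higher, and with the other totals 0 passed in either direction. Of 13 protein folding and secretion genes, 5 were lower and 0 higher, and 3 and 0 with the other totals. Calr, the endoplasmic reticulum chaperone calreticulin, was at 117 CPM on the specific side and 910 CPM on the primary side. Among other primary granule and promyelocyte genes, 0 were higher and 4 lower of 11, and with the other totals 2 were higher and 2 lower. Plac8 was at 620 and 4973 CPM, Ms4a3, a membrane protein of promyelocytes, at 350 and 761 CPM, and Fcnb, a ficolin, at 1046 and 288 CPM.

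Of 9 myeloid transcription factor genes outside the rule with enough UMIs, 1 was higher and 4 lower on the specific side past 4-fold, and 2 and 3 with the other totals. Cebpe, a gene of the rule that chose the members, was at 804 CPM on the specific side, with 1 to 26 UMIs per cell (median 5), and at 121 CPM on the primary side, with 0 to 13 (median 0.5). Cebpa, which acts earlier in the lineage, was at 4.49 and 98.0 CPM, and Myb, a progenitor factor, at 26.9 and 167 CPM. Spi1, which encodes PU.1, was at 570 and 392 CPM. Cybb, the catalytic subunit of the phagocyte NADPH oxidase, was at 727 and 63.4 CPM. Of the 6 oxidase genes, 1 was higher past 4-fold and 0 lower, and with the other totals 4 were higher. Itgam, the alpha chain of the Mac-1 integrin, was at 157 and 5.76 CPM, and Ly6g, the neutrophil surface antigen, at 543 CPM with no UMI on the primary side. Csf3r, the receptor for granulocyte colony-stimulating factor, was at 35.9 and 46.1 CPM.

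The specific-side cells of library 1 fell into 2 groups by cell cycle genes. Of the genes listed for S phase and for G2 and M phase, 11 cells held 27 to 166 UMIs and 13 cells held 0 to 4. The limit of 10 UMIs was set after these values were seen. The 11 cells had a median of 12557 UMIs (6229 to 25667) and the 13 cells a median of 5830 (4579 to 9164). Thinned to 4000 UMIs each, the 11 cells still held 14 to 48 UMIs of these genes and the 13 cells 0 to 3. The primary-side cells held 62 to 280 unthinned and 16 to 33 thinned, and the 2 cells of library 2 held 0 and 3.

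Granule genes differed between the 11 and the 13 cells. Ficolin Fcnb was at 1512 CPM in the 11 cells and 180 CPM in the 13. The chromatin protein gene Hmgb2 was at 4729 and 1451 CPM. Ngp was at 32340 and 49040 CPM and Camp at 49710 and 51890 CPM, with wide overlap between cells of both groups. Ltf was at 4135 and 12360 CPM and Lcn2 at 7511 and 16150 CPM. The lactoferrin range was 0.845 to 150 per 10000 UMIs in the 11 cells and 36.1 to 187 in the 13.

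Retnlg, Mmp8 and Mmp9, late genes, were found mainly in the 13 cells, while the stefin genes BC100530 and Stfa1 were not. BC100530 was at 2540 CPM in the 11 cells and 2569 CPM in the 13, and Stfa1 at 1339 and 1644 CPM. The 2 cells of library 2, with 0 and 3 cycle UMIs, held 4 UMIs of Retnlg and 2 of Mmp8. Retnlg was at 69.0 CPM in the 11 cells and 14080 CPM in the 13, and Mmp8 at 48.3 and 2235 CPM. Retnlg ran from 0 to 4.07 per 10000 UMIs in the 11 cells and from 0 to 793 in the 13. Of the 1096 UMIs of Retnlg in the 13 cells, 740 came from 2 cells (374 and 366), 1 cell held none and the median was 24. In the other 11 of the 13 cells Retnlg was at 5289 CPM. Mmp9 was at 69.0 and 796 CPM, Ly6g at 159 and 1259 CPM, and the chemokine receptor Cxcr2 at 20.7 and 167 CPM. Primary granule genes had at least 1 UMI in 6 of the 11 cells, with up to 628, and in 2 of the 13 cells, with at most 1. Elane was at 3831 and 12.9 CPM. The 2 cells with both granule classes gave 524 of the 555 Elane UMIs of the 11 cells, 7 of the 11 had none, and Elane was at 325 CPM in the other 9.

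Over the 24 cells, the share of cell cycle UMIs had a Spearman correlation of 0.78 with Hmgb2, 0.68 with Fcnb, -0.69 with Retnlg, -0.64 with Ly6g and -0.61 with Ltf and with Mmp8. The values for Ngp and Camp were -0.20 and 0.16. The cycle share also correlated with depth (0.66), as did Fcnb (0.79), Retnlg (-0.74) and Mmp8 (-0.83). These correlations are descriptions over cells of 1 library that share depth and a total.

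The 2 cells of library 2 were placed on the specific side by their granule genes, which are given as a description. They held 7166 and 9154 UMIs, with 13.2% and 17.1% in the rule genes. Ngp was at 67770 CPM, Camp at 75060 CPM, Ltf at 10480 CPM and Cebpe at 552 CPM, and Elane, Mpo, Prtn3 and Ctsg had no UMI, where 3 counts would be 184 CPM. Among genes the rule did not use, Lcn2 was at 24940 CPM, Ly6g at 1716 CPM and Ifitm6 at 4902 CPM. Retnlg was at 245 CPM and Mmp8 at 123 CPM, from 4 and 2 UMIs. Over 732 genes, the summed levels of these cells had a Spearman correlation of 0.57 with the specific side of library 1, 0.26 with the primary side, 0.21 with the members under 0.5% and 0.27 with macrophages of library 2. Other cells of library 2 carried 5.17 CPM of Ngp and 6.46 CPM of Camp. The 4 primary granule genes had 14 UMIs there (2.58 CPM), none of them of Elane or Mpo.

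Genes whose pattern was most like Ngp or Mpo were found by Spearman correlation of values per 10000 UMIs over the 32 granule-rich cells of library 1, among 2788 genes. The genes nearest to Ngp were Ltf (0.838), Wfdc21 (0.818), Cybb (0.817), Lcn2 (0.809) and AA467197 (0.754), with Camp at 0.707. Those nearest to Mpo were Nop10 (0.991), Trp53 (0.938), Taf1d, Prpf19 and Srsf10, with Ctsg at 0.897. Ngp correlated with depth at -0.58 and Mpo at 0.82, so both orders share depth. Ngp, Ltf, Camp, Mpo and Ctsg chose the cells and set the sides, so correlations among them are a description. Mpo had a UMI in 3 of the 24 specific-side cells and in all 8 primary-side cells, so its order largely separates the sides. Over all 93 members of library 1 and 10537 genes, Cd177 (0.734), Chil1 (0.706) and Chil3 (0.701) were nearest to Ngp, and B4galnt1 (0.592) and Cst7 (0.573) to Mpo.

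The members were then tested against macrophages, the resident myeloid cells of the cochlea, in sums of counts per library and class. Macrophages were non-members with at least 3 of C1qa, C1qb, C1qc, Csf1r, Mrc1, Adgre1, Ms4a7 and Fcrls, 30 cells in library 1 and 25 in library 2. The members entered as 1 sum, that of library 1, which was assumed to vary like the other sums. Genes used to choose any class were left out of the test.

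By edgeR's quasi-likelihood test, 211 of 13097 genes were higher (1.61%) and 288 lower (2.20%) in all members than in macrophages at an adjusted p below 0.05. For the granule-rich cells, 898 of 8700 genes were higher (10.3%) and 1405 lower (16.1%), and 63 of the 898 and 137 of the 1405 were also called with all members. Without the macrophages of library 1, the counts were 22 higher with all members and 191 higher and 649 lower with the granule-rich cells. Without library as a block, they were 23 and 59 with all members and 474 and 903 with the granule-rich cells. With the 2 cells of library 2 as a second sum, 438 of 7281 genes were higher (6.02%) and 2183 lower (30%) in the granule-rich cells. The median log2 fold change of all genes was -0.02 with all members, -0.33 with the granule-rich cells and -0.87 with the library 2 sum added.

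Genes named as higher by fold change with all members were neutrophil products, but that sum was mixed. Of its 2140850 UMIs, 1744592 came from the 61 members that were not granule-rich, 55 of them led by other cell types' markers. In the same fit 7 of 9 hair cell markers were called higher than in macrophages. Of 12 cochlear epithelium markers, 5 were called higher and 1 lower. With the granule-rich cells, 1 of 9 hair cell markers and 0 of 9 epithelium markers were higher. Wfdc21 was at 550 CPM in all members, against 2.34 and 0 CPM in the macrophages of libraries 1 and 2, with a log2 fold change of 7.98 ± 0.815 (SE, edgeR's quasi-likelihood test, adjusted p = 2.9e-19). Lcn2 was at 1109 CPM, against 21.1 and 0 CPM (6.00 ± 0.611, adjusted p = 2.61e-19). S100a8 was at 18130 CPM, against 843 and 4.52 CPM (4.73 ± 0.564, adjusted p = 4.09e-14). The macrophages of library 1 thus held more S100a8 than those of library 2, as did other cells of library 1, and the part of free RNA in this was not tested.

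Fcnb, Retnlg, S100a9, Serpinb1a, Pglyrp1, Ifitm6 and Slpi were also named, with log2 fold changes of 3.31 to 6.13. In the granule-rich cells alone all 10 genes were higher, from 6.22 for Slpi to 11.01 for Wfdc21. Retnlg, Fcnb, Ifitm6 and Slpi lost the call without the macrophages of library 1. Without the library block S100a8, S100a9, Lcn2, Retnlg, Pglyrp1, Ifitm6 and Slpi lost it, and by DESeq2 Retnlg, Serpinb1a and Slpi did. With the library 2 sum added to all members, Ifitm6 lost it (adjusted p = 0.179 by edgeR's quasi-likelihood test). With the granule-rich cells, Retnlg and Slpi lost the call without the macrophages of library 1, S100a8, S100a9 and Retnlg without the library block, and Retnlg by DESeq2.

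The 10 genes named as lower with all members included chemokines and receptors of macrophages. Only 1 of them, Cx3cr1, was also among the 10 named as lower with the granule-rich cells. Ccl12, a monocyte-attracting chemokine, was at 1.87 CPM in all members, against 742 and 260 CPM in macrophages, and fell by 8.35 ± 0.717 on the log2 scale (SE, edgeR's quasi-likelihood test, adjusted p = 3.78e-27). Cx3cr1, the fractalkine receptor of resident macrophages, was at 1.40 CPM, against 164 and 176 CPM (adjusted p = 3.33e-20 by the same edgeR test), and had no UMI in the granule-rich cells. C3ar1, Gpr34, Bcl2a1b, Ccl3, Fcgr1, P2ry6, Ccl4 and Ctss were also lower. Ctss, the lysosomal protease cathepsin S, was at 26.2 CPM, against 826 and 732 CPM. Of these 10 genes, Ccl4 lost the call without the library block, with all members and with the granule-rich cells.

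Granule and oxidase lists were higher in granule-rich cells than in macrophages. Of the other primary granule and promyelocyte genes, 10 were higher and 0 lower of 11 tested, with a median log2 fold change of 4.88, against -0.33 over all genes. Nkg7 had 141 UMIs in the granule-rich cells of library 1 and none in macrophages of either library. Of the other specific granule genes, 11 were higher and 0 lower of 12. Of the gelatinase granule and mature neutrophil genes, 19 were higher and 1 lower of 25, the lower one being Il1b, which encodes interleukin-1 beta. Without the macrophages of library 1, these 3 lists had 4, 5 and 5 genes higher. All 6 NADPH oxidase genes were higher, with a median of 2.47, but 1 was without the macrophages of library 1. With all members none was called by edgeR or DESeq2, with 1 at an unadjusted p below 0.05 by edgeR. Ncf4, a regulatory subunit, was at 353 CPM, against 20.6 and 13.6 CPM (4.37 ± 0.490, edgeR's quasi-likelihood test, adjusted p = 1.5e-16).

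**Figure D4:**
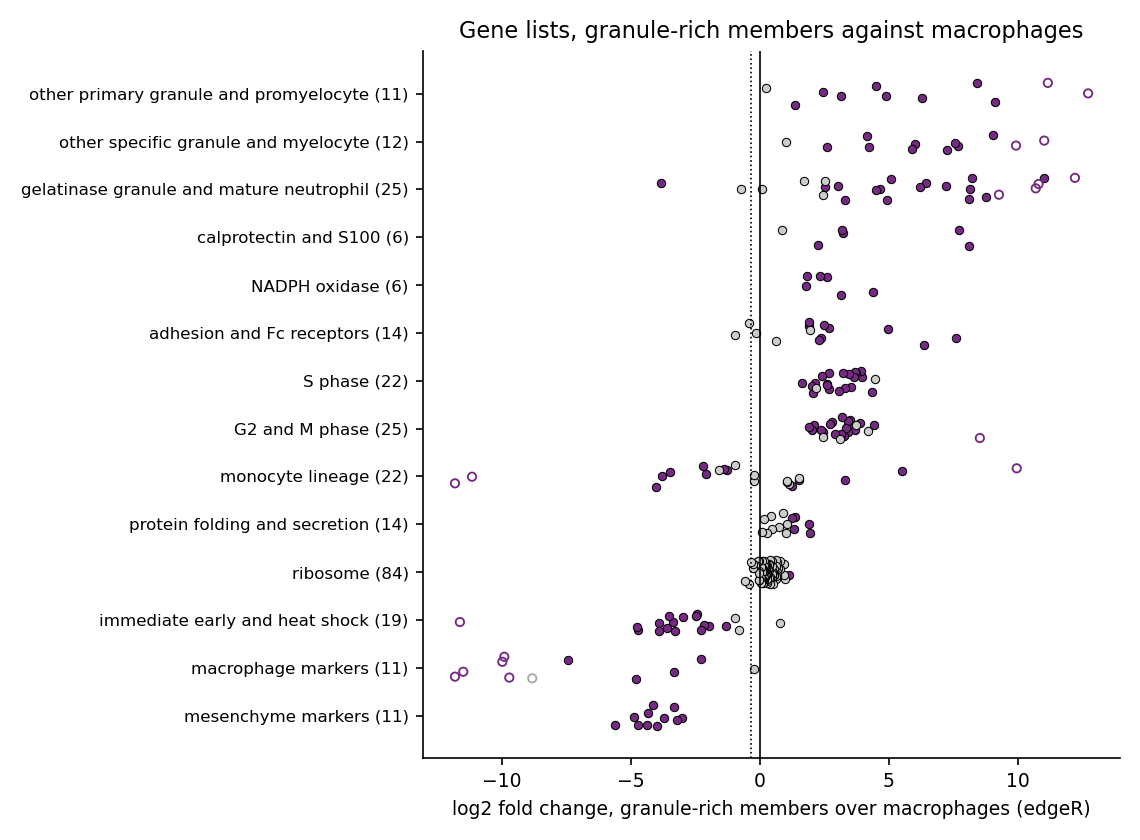
Log2 fold change of each tested gene by list, granule-rich cells over macrophages. Points are genes (purple: adjusted p below 0.05 by edgeR's quasi-likelihood test, grey: not called, open: no UMI in one class, so the position depends on the prior count), the dotted line is the median of all genes and numbers in brackets are genes tested. Other specific granule genes (11 higher of 12) and cell cycle genes (20 of 22 and 21 of 25) were higher, and immediate early and heat shock genes (16 of 19) and mesenchyme genes (11 of 11) were lower.

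Cell cycle genes were higher in the sum of granule-rich cells of library 1 too, of which 13 held 0 to 4 UMIs of them. In the 2 cells of library 2 the S phase list was at 122.5 CPM, against 293.7 CPM in macrophages of that library. The G2 and M list was at 61.3 CPM, against 90.4 CPM. These library 2 levels rest on 2 UMIs and 1 UMI. For S phase, 20 genes were higher and 0 lower of 22 (median log2 fold change 3.14), and for G2 and M phase, 21 and 0 of 25 (median 3.18, or 3.15 with a gene at 0 set to its bound). Tyms, thymidylate synthase, was at 167 CPM in the granule-rich cells of library 1, against 13.8 and 18.1 CPM in macrophages. Without the library block 11 of the S phase genes and 1 of the G2 and M genes were called. With all members 0 of either list were called by edgeR or DESeq2, while 8 and 4 were higher at an unadjusted p below 0.05 by edgeR.

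Monocyte lineage genes went both ways, with 5 higher and 9 lower of 22 in granule-rich cells. Ly6c2 was at 2577 CPM, against 91.7 and 0 CPM in macrophages, and Clec12a, an inhibitory C-type lectin, at 437 CPM, against 45.8 and 22.6 CPM. Irf8 was at 227 CPM, against 105 and 90.4 CPM, and was not called with the library 2 sum (edgeR's quasi-likelihood test, adjusted p = 0.285). Fn1, fibronectin, was lower, at 22.7 CPM, against 394 and 628 CPM. Of the macrophage markers not used to choose the class, 9 were lower and 0 higher of 11, and 6 had no UMI in the granule-rich cells.

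Immediate early and heat shock genes were lower, 16 of 19 with 0 higher (median log2 fold change -2.98). Egr1, an immediate early transcription factor, was at 35.3 CPM, against 1313 and 1911 CPM in macrophages, and at 61.3 CPM in the 2 cells of library 2. With all members 0 of 20 were called by edgeR or DESeq2, with 1 lower at an unadjusted p below 0.05 by edgeR, and Egr1 was at 1476 CPM in the members under 0.5%. The mesenchyme markers moved the same way, 11 of 11 lower (median -4.13). The macrophage sums held 4460 and 4096 CPM of Coch, which encodes cochlin of the spiral ligament, against 153 CPM on the specific side, 202 CPM on the primary side and 61.3 CPM in library 2. The part of mesenchymal RNA in the macrophage comparison was not tested.

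Against B lineage cells (133 in library 1 and 4 in library 2), 245 of 13097 genes were higher (1.87%) and 127 lower (0.970%) in all members by edgeR's quasi-likelihood test. In the granule-rich cells 913 were higher (10.5%) and 1457 lower (16.7%) of 8700. With the library 2 sum 470 were higher (6.46%) and 2133 lower (29.3%) of 7281. Without the B lineage cells of library 1 the counts with all members were 4 and 3. Genes named as higher with all members were Ifitm6, Wfdc21, Hp, Chil3, S100a8, Ly6c2, S100a9, Lcn2, Pglyrp1 and Fcnb, with log2 fold changes of 6.75 to 8.62. Of these 10 genes 5, and of the 10 named as lower 0, were also among those named with the granule-rich cells. Hp, which encodes haptoglobin, was at 241 CPM in all members, against 1.19 and 0 CPM. The sum of all members was the mixed one described above. With it 2 of 9 hair cell markers and 3 of 12 cochlear epithelium markers were called higher and 0 lower. With the granule-rich cells 0 were called higher and 5 of 9 lower in each of these lists. The B lineage sums of libraries 1 and 2 held 9360 and 14400 CPM of mesenchyme markers. Their B lineage markers were at 3330 and 2263 CPM. With Ebf1 not counted in the rule, 82 and 1 cells remained. The part of mesenchymal RNA in this comparison was not tested. Mmp2, Islr, Nfia and Shisa2 were among the 10 named as lower with the granule-rich cells, which held no UMI of them. Genes named as lower with all members included the B cell genes Fcrla and Mzb1 and the cell cycle genes Ube2c, Nusap1 and Ccna2. These 3 cycle genes were lower with all members, but in the granule-rich cells they were not called and had log2 fold changes of 0.08, 0.55 and 0.23 (edgeR's quasi-likelihood test, adjusted p = 0.979, 0.424 and 0.764). Of the 20 genes named against the B lineage with all members, 18 lost the call without the library block, as did 15 of 19 without the B lineage cells of library 1, 6 of 20 by DESeq2 and 7 of 19 with the library 2 sum. With Ebf1 not counted in the B lineage rule, 188 genes were higher and 481 lower.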

How the data were processed

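The deposited matrices hold raw UMI counts by gene and cell barcode; the submitters' processing notes name Cell Ranger 2.1.0 and the build mm10. The files held 1610 and 720 barcodes with 20212520 and 7094752 UMIs over 27998 genes. Barcodes passed with 300 or more genes seen and no more than 20% of UMIs from mt- genes (1331 and 644, with a median of 10601 and 6116 UMIs). Scrublet, at a rate of 2%, marked 2 and 4 cells, 1 of them a member, and they were kept. The libraries shared 2 barcode sequences, neither a member's. No correction for free RNA was made.

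Counts were summed per library and class (at least 3 cells) and tested with edgeR 4.0.16 (R 4.3.3, limma 3.58.1; TMM, filterByExpr with a minimum count of 10, robust quasi-likelihood, Benjamini-Hochberg over all genes) with library as a block, since classes of 1 library come from 1 suspension; 9 sums left 3 residual degrees of freedom. DESeq2 1.42.0, other scalings, cell limits and left-out libraries were the alternatives. Erythroid cells had at least 50% haemoglobin UMIs, and B lineage cells at least 3 genes of a list that includes Cd79a, Cd79b, Vpreb1, Vpreb3, Igll1, Ebf1 and Rag1 (not every gene of it is reported here). Intervals are exact (Clopper-Pearson or Poisson, 95%) and, like floors of 3 counts, cover counting error only. Cells were handled in Python 3.11.15 (scanpy 1.11.5, scipy 1.17.1, numpy 2.4.6, pandas 2.3.3, matplotlib 3.10.9).

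Named genes were the rule genes, genes of the lists (5 listed genes were not used), the 10 with the largest fold per contrast and direction among called genes with at least 100 CPM, the 10 with the largest side ratio per direction in the granule-rich cells, and the 10 most like Ngp or Mpo. The members and lists were chosen with earlier results of these data known.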

Additional observations from a re-analysis of the deposited data

Results flagged for a closer look

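Rule genes were also seen outside the cells analysed. In the 279 barcodes of library 1 left out by the cell filter, 81 UMIs of 1703377 belonged to the 8 rule genes, and no such barcode held more than 0.0433% of its UMIs in them or 3 of the genes. In library 2 the count was 2 UMIs of 604916 in 76 barcodes.

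Among the 412 cells of library 1 over the haemoglobin limit, 21 had at least 3 rule genes, against 0 of 38 in library 2. Their highest share of rule genes was 0.285%, below the 0.5% limit of the granule-rich cells.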

How the results depend on the processing

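Counts of members, of sides and of called genes moved with the rule and the method. Members of library 1 (93) were 45 with at least 4 rule genes, 239 with at least 2, 32 with the 0.5% limit and 32 when thinned to 2000 UMIs. Those of library 2 (2) were 9 with at least 2 genes. Specific-side members of library 1 (61) were 27 with cells between 0.1 and 0.9 left out, 24 with the 0.5% limit and 24 thinned. Genes higher on the specific side (108) were 63 with the 0.5% limit, 19 with CPM + 50 and 19 thinned, and genes lower (23) were 126, 4 and 64, and 120 with the cells between 0.1 and 0.9 left out. In the granule-rich cells alone, 63 and 126 became 107 and 46 with the other totals, and the 126 became 237 with those cells left out. Against macrophages, genes higher in all members (211) were 25 by DESeq2, 23 with no replicate block, 898 in the granule-rich cells and 22 to 164 leaving out 1 macrophage sum. Genes lower (288) were 103, 59, 1405 and 190 to 310. In the granule-rich cells, the 898 became 474 with no replicate block, 438 with the library 2 sum and 191 to 550 leaving out 1 macrophage sum. The 1405 became 611 by DESeq2, 903 with no replicate block, 2183 with the library 2 sum and 649 to 856. Against the B lineage, genes higher in all members (245) were 31 by DESeq2, 26 with no replicate block, 913 in the granule-rich cells and 4 to 166 leaving out 1 B lineage sum. Genes lower (127) were 15, 3, 1457 and 3 to 89, and 83 with the library 2 sum and 481 with Ebf1 not counted. In the granule-rich cells, the 913 became 452 with no replicate block, 470 with the library 2 sum and 549 with Ebf1 not counted, and the 1457 became 489 by DESeq2, 747 with no replicate block and 723 with Ebf1 not counted. The cause was not tested. Signs turned for 4 genes named as lower than in the B lineage with all members, all in fits of the granule-rich cells and none of them called there. The log2 fold changes were 0.0835, 0.55 and 0.23 for Ube2c, Nusap1 and Ccna2 in the granule-rich cells, and 0.00986, 0.49 and 0.18 with library sizes without S100a8, S100a9 and the rule genes. With DESeq2 size factors they were 0.21, 0.66 and 0.34, and 0.0054 for H2afx, and with no replicate block 0.84, 0.96 and 0.72, and 0.39 for H2afx. Those of Nusap1 and Ccna2 were 0.46 and 0.26 by DESeq2 and 0.45 and 0.14 with no filter. No named gene of the macrophage or side comparisons changed sign. The balance of higher to lower turned on the sides with the other totals (above), and against the B lineage with Ebf1 not counted (188 higher and 481 lower). Leaving out a members' sum could not be run, since the members entered as 1 sum. The alternatives that combine the granule-rich cells with another setting, the library 2 sum, the Ebf1 setting, the cell cycle limit and the levels with 2 cells left out were chosen after seeing the data. At 16320 UMIs in all, 1 UMI in the cells of library 2 is 61.3 CPM, and a count of 0 allows up to 184 CPM.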

Other observations

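Further lists were measured in the granule-rich cells of library 1. Lta4h, which encodes the hydrolase that makes leukotriene B4, was at 273 CPM there and 490 CPM in library 2, against 20.6 and 22.6 CPM in macrophages (log2 fold change 4.35 ± 0.466, SE, edgeR's quasi-likelihood test, adjusted p = 3.74e-18). Of 7 leukotriene and prostaglandin genes, 6 were tested, with 2 higher and 2 lower. Lbr, the lamin B receptor of the nuclear envelope, was at 220 CPM, against 39.0 and 18.1 CPM in macrophages. Padi4, which encodes a histone-modifying deiminase of neutrophils, had 30 UMIs on the specific side and none on the primary side, at least 7.79-fold higher. Csf3, the gene of granulocyte colony-stimulating factor, had no UMI in any class of either library.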
